A study of Gallus gallus with 12 samples.

Results

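The chick midbrain was compared with rhombomere 2, the second segment of the hindbrain, by the GeneChips hybridised with these regions. All arrays labelled m or r2 were taken, 4 of the 12 arrays of the series, with 2 pools of tissue (set 1 and set 2) for each region. The other arrays held rhombomeres 1, 3, 4 and 5 (r1, r3, r4 and r5) in the same number of pools. They entered the estimate of the spread, the processing steps that used all 12 arrays and the description of levels along the axis. Every pool came from untreated chick embryos labelled as Hamburger-Hamilton stage 10, with no allele or agent distinguishing the groups. The paper gives a slightly later stage and describes the midbrain tissue as caudal midbrain. Neural tubes were loosened from ectoderm and mesoderm in Dispase at 1 mg/ml, for 15 min per the labels, and were cut by hand into segments. Total RNA of each pool was amplified and labelled with biotin before hybridisation. The paper describes set 1 and set 2 as separate collections, so the spread between them is that of pooled tissue and not of single embryos. In such bulk tissue a lower signal can come from fewer cells of a type or from less RNA per cell, and these cannot be told apart.

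At this stage the midbrain and the hindbrain are set apart by transcription factors. OTX2 marks the midbrain, GBX2 marks the anterior hindbrain, and the boundary between them holds the isthmic organiser, a source of FGF and Wnt signals that patterns the tissue on both sides. EN1 spans the organiser and both of its flanks. Further back, Hox genes give each rhombomere its identity, with HOXA2 having the most anterior limit of them, at the front edge of rhombomere 2. Retinoic acid from more posterior mesoderm induces Hox genes, and enzymes of the CYP26 family break it down. The dorsal edge of these regions also produces neural crest, which leaves the neural tube at about this stage.

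The deposited value for each probe set, a group of oligonucleotides reading 1 transcript, is the linear intensity summarised by the MAS5 algorithm. Each array was divided by its own median and multiplied by 5.895, the mean of the 12 array medians, to give the scaled signal used below. A floor of 1.026, which is the pooled 20th percentile, replaced lower values before log2 was taken, and a fold change is m over r2 on this floored scale. Of 38439 probe sets, 21731 were above the array median in both pools of at least 1 region and were tested with limma, giving P values adjusted by Benjamini-Hochberg over all of them. A probe set was called at an adjusted P value under 0.05. Genes were described by 1 probe set each, that with the highest mean signal over the 12 arrays, which gave 10001 genes. The floor, the filter and this choice thus drew on all 6 regions. With the filter on m and r2 only, 18707 probe sets were tested, and 81 were called higher in m and 143 higher in r2. Levels of different probe sets are not comparable with each other.

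Depth and quality were compared over the 4 arrays. Array medians before scaling were 7.95 and 6.10 in m and 8.50 and 8.75 in r2. Correlation of log2 signals between pools of 1 region was 0.962 for m and 0.958 for r2, against 0.934 to 0.940 between an m and an r2 array. The 3′/5′ ratio of a control gene rises as RNA shortens or amplification is incomplete. For actin it was 7.15 to 7.26 in m and 9.53 to 13.3 in r2, without overlap. For GAPDH it was 1.00 and 0.957 in m and 1.07 and 1.40 in r2. The EF1A ratios overlapped, at 1.98 and 2.46 in m and 2.21 and 2.80 in r2. The part of RNA quality in the calls was not tested. Both r3 arrays stood apart with actin ratios of 70.0 and 181. The r4 arrays had actin ratios of 35.4 and 44.7 and the r5 arrays of 33.5 and 22.0, also above those of m and r2. The r3, r4 and r5 arrays all entered the spread and the levels along the axis. Without r3 in the fit 266 probe sets were called higher in m and 319 higher in r2, against 78 and 144 with it, and all 222 calls were shared.

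The regional labels were checked first against 3 genes. OTX2, a homeobox gene expressed from the forebrain to the isthmus, had signals of 899 and 800.0 in m and of 17.4 and 18.9 in r2. Both m pools were far above both r2 pools, a 46.7-fold difference (log2 fold change 5.55 ± 0.47 SE, n = 2 pools per region, limma adjusted P value 8.59e-05). HOXA2, the only Hox gene known to be expressed in rhombomere 2, showed the opposite pattern, with signals of 24.6 and 42.8 in r2 and values under the floor in both m pools. It was 31.6-fold higher in r2 when the m pools were set at the floor (log2 fold change −4.98 ± 0.41 SE, adjusted P value 7.31e-05). The size was set by the floor, with log2 fold changes of −6.01 with none and −3.06 with the floor at the 40th percentile. EN1 had signals of 1162 and 1193 in m and of 89.5 and 103 in r2, a 12.3-fold difference (log2 fold change 3.62 ± 0.55 SE, adjusted P value 0.00704). EN1 lost its call without any 1 of the 4 arrays, at log2 fold changes of 3.51 to 3.72, while OTX2 and HOXA2 stayed called. In limma fits without r3 and on the m and r2 arrays alone, the adjusted P values of EN1 were 4.81e-05 and 1.26e-05. EN1 also lost its call under some alternatives given at the end. All 3 markers were on the side their labels give.

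The fit called 222 of 21731 probe sets (1.02%), 78 higher in m (0.359%) and 144 higher in r2 (0.663%). On the deposited values without scaling the same test called 20 and 76, so that the share higher in m went from 35.1% to 20.8%. Over genes, 134 of 10001 were called (1.34%), of which 42 were higher in m (0.42%) and 92 were higher in r2 (0.92%), with a median log2 fold change over all genes tested of 0.06. The counts for gene lists below are to be read beside the 0.42% and 0.92% of all genes. The lists were chosen with earlier results of these data known, so a count above these shares is not a test of a list. Differences of more than 4-fold made up 24 of the 42 and 49 of the 92. For 52.2% of all genes the 2 m pools did not overlap the 2 r2 pools, so that separation of the pools is common here whatever the size of the difference. Leaving out 1 array at a time left m or r2 with 1 pool, whose spread was then taken from the other regions. With each array left out in turn 8 of the 42 genes and 19 of the 92 stayed called every time, which is meant below by called in every fit, and the genes described most fully come from these. The other calls were lost without at least 1 array.

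**Figure D1:**
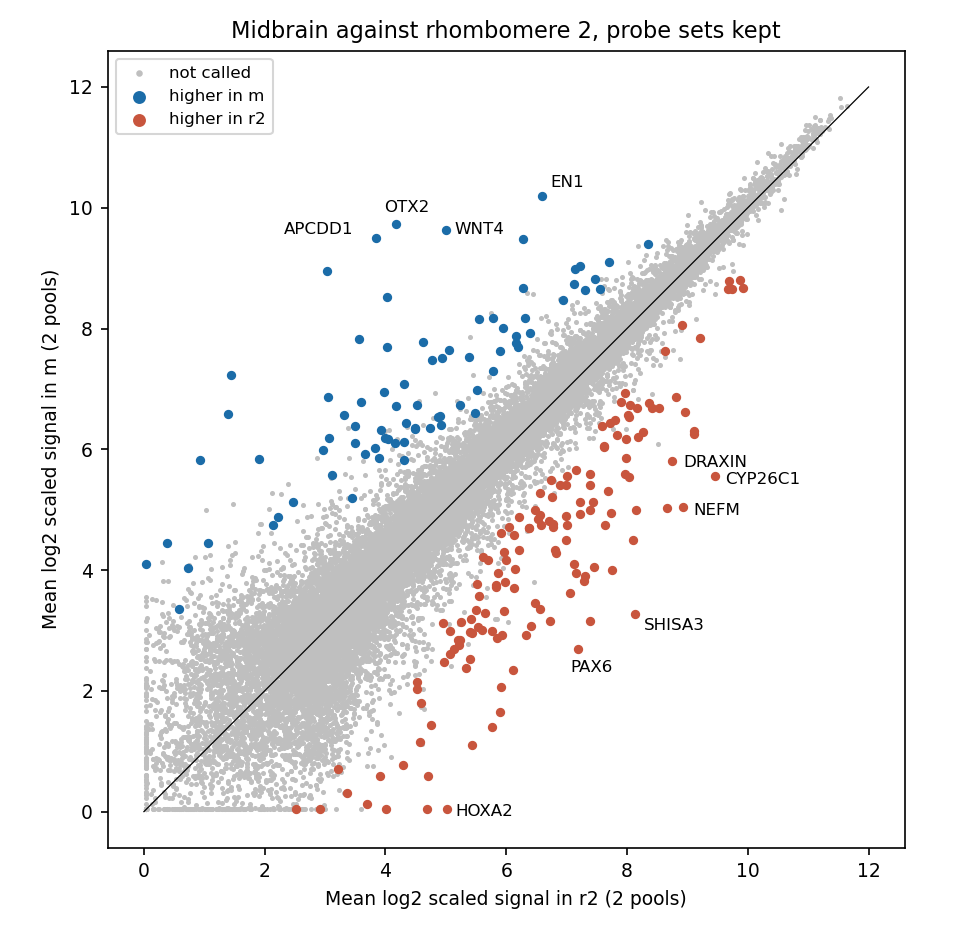
Mean log2 scaled signal in m (vertical axis) against r2 (horizontal axis) for the 21731 probe sets tested, 2 pools per region, with probe sets called by limma in blue (78 higher in m) and red (144 higher in r2) and the diagonal marking equal signal. OTX2, APCDD1, WNT4 and EN1 lie far above the diagonal, and HOXA2 lies at the floor of m.

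Of the 8 genes higher in m in every fit, 3 belong to the Wnt pathway and OTX2 is another. APCDD1, a membrane inhibitor of Wnt signalling, had signals of 708 and 738 in m and of 15.9 and 12.8 in r2. That was a 50.5-fold difference (log2 fold change 5.66 ± 0.34 SE, adjusted P value 4.37e-06). WNT4, a secreted ligand, was at 789 and 798 in m and at 28.5 and 35.9 in r2, a 24.8-fold difference (4.63 ± 0.33 SE, adjusted P value 2.44e-05). WNT3A, a ligand of the dorsal midline, was at 207 and 232 in m and at 21.8 and 27.9 in r2, 8.88-fold higher in m (3.15 ± 0.33 SE, adjusted P value 4.44e-04). The pools of m and r2 were separate for each of these, as they were for 52.2% of all genes. A second probe set of WNT3A was also called higher in m (log2 fold change 2.89, adjusted P value 0.00258), as was a second probe set of OTX2 (5.93, adjusted P value 0.00222). Another probe set of APCDD1 had a log2 fold change of 3.17 and was not called (adjusted P value 0.258).

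Outside the Wnt list and OTX2, 4 more genes were higher in m in every fit. HS3ST6, a heparan sulfate sulfotransferase, had signals of 196 and 221 in m and of 19.0 and 14.0 in r2 (12.8-fold, adjusted P value 2.00e-04). CAMK1G, a calcium/calmodulin-dependent kinase, was at 275 and 304 in m and at 56.1 and 54.2 in r2 (5.24-fold, adjusted P value 4.44e-04). The genes C3H6ORF163 and C2orf88 were 8.72-fold and 6.81-fold higher in m, with adjusted P values of 4.78e-04 and 0.00108. For C2orf88 the signals were 136 and 133 in m and 20.1 and 19.5 in r2. The calls of C2orf88 (0.0717) and CAMK1G (0.103) were lost without scaling. The 3 other probe sets of C3H6ORF163 had log2 fold changes of 1.60 to 3.52 and were not called (adjusted P values 0.0924 to 0.257).

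Levels of these genes were also read in the other regions. In r1, between the regions compared, OTX2 had a mean signal of 142, APCDD1 of 103, WNT4 of 295 and WNT3A of 64.6, each below m and above r2. EN1 was at 870 in r1, closer to m than to r2. Rhombomere 1 adjoins the midbrain and was cut by hand, and the part of midbrain tissue in these r1 levels was not tested. In r3, r4 and r5, OTX2 was between 3.20 and 11.5 and APCDD1 between 6.93 and 24.9. WNT3A was instead at 108 in r5, above its r2 level, so that its low point among the 6 regions was r2. WNT4 was lowest in r3 (1.07), the region with the highest 3′/5′ ratios.

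**Figure D2:**
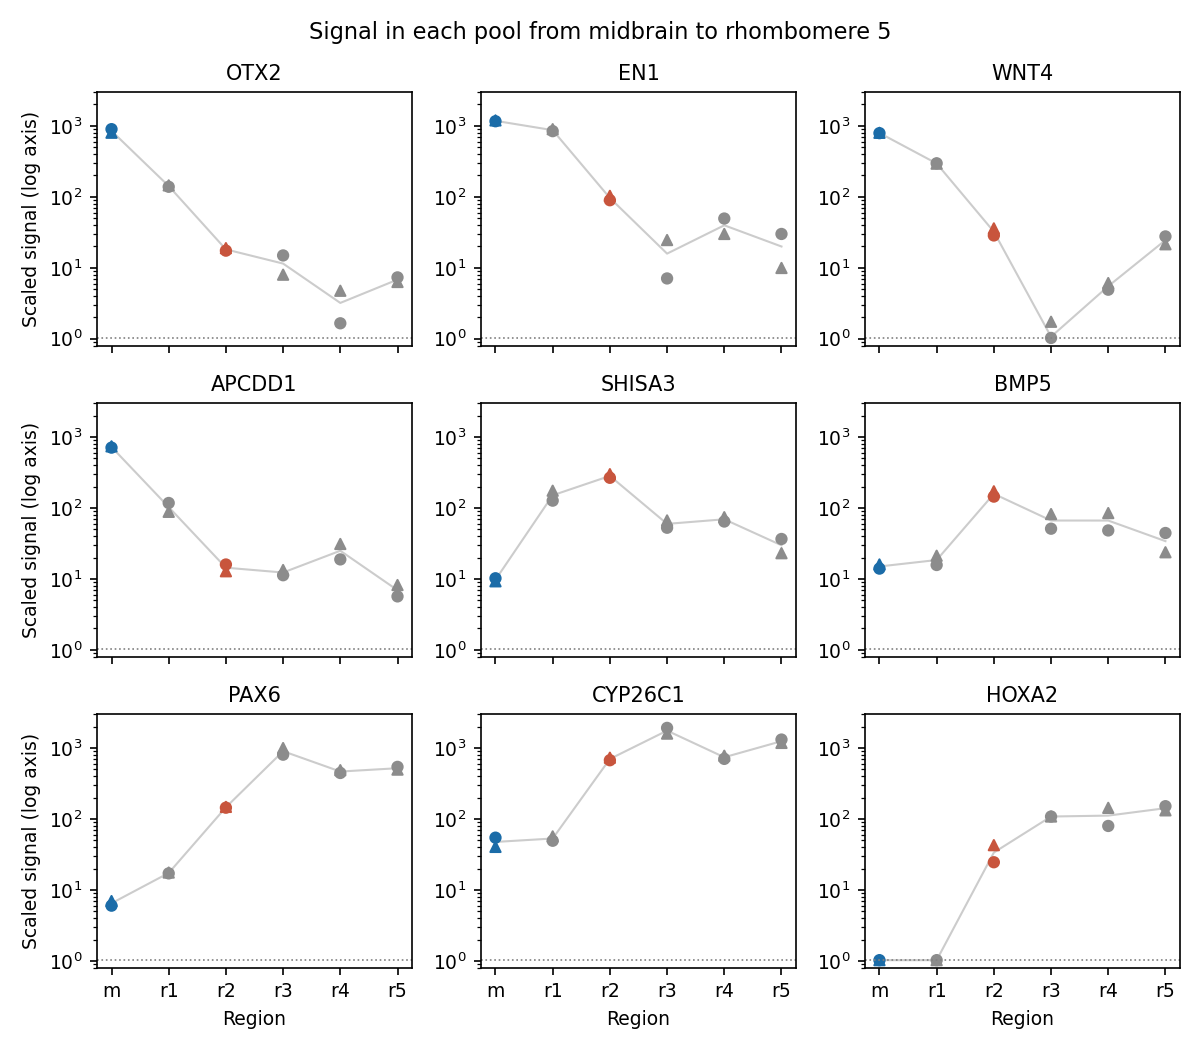
Scaled signal (log axis) of 9 genes in each pool from m to r5, with circles for set 1, triangles for set 2, m in blue, r2 in red, the grey line joining the means and the dotted line marking the floor of 1.026. OTX2, EN1, WNT4 and APCDD1 fell from m through r1 to r2, whereas PAX6, CYP26C1 and HOXA2 were low in m and r1 and high from r2 backwards.

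Genes higher in rhombomere 2 in every fit included transcription factors, enzymes of retinoic acid breakdown and membrane proteins. PAX6, a paired-type transcription factor of neural progenitors in the hindbrain, eye and forebrain, had signals of 145 and 148 in r2 and of 6.01 and 6.97 in m. It was 22.6-fold higher in r2 (log2 fold change −4.50 ± 0.21 SE, adjusted P value 1.08e-06). SHISA3, whose protein family holds back Wnt and FGF receptors in the endoplasmic reticulum, was at 266 and 299 in r2 and at 10.2 and 9.24 in m (29.0-fold, adjusted P value 4.37e-06). EPHA7, an ephrin receptor, was at 222 and 210 in r2 and at 18.1 and 14.2 in m (13.5-fold, adjusted P value 2.53e-05). The lowest r2 pool was well above the highest m pool for each of these, which were chosen for being called in every fit. SHISA3 was higher in r2 than in any other region, with means of 151 in r1 and of 29.8 to 69.2 in r3, r4 and r5. PAX6 by contrast was at 17.4 in r1 and at 467 to 904 behind r2.

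Of the CYP26 enzymes, which clear retinoic acid, all 3 measured were called higher in r2, against 0.92% of all genes. CYP26C1 had signals of 674 and 731 in r2 and of 54.6 and 40.5 in m (14.9-fold, log2 fold change −3.90 ± 0.20 SE, adjusted P value 1.98e-06). CYP26A1 was at 91.4 and 122 in r2 and at 8.89 and 9.03 in m (11.8-fold, adjusted P value 0.00135). The r1 means of these genes, 53.2 and 10.9, were near those of m, so that the step lay between r1 and r2. CYP26B1 was at 27.0 and 21.0 in r2 and at 4.78 and under the floor in m (adjusted P value 0.0431). Its log2 fold change was set by the floor, at −3.42 with the floor used, −4.22 with none and −2.46 with the floor at the 40th percentile. Its call was kept without m set 1 (log2 fold change −4.535). It was lost without m set 2 (−2.31), r2 set 1 (−3.24) or r2 set 2 (−3.61). With set as a block (adjusted P value 0.0662) and with no floor (0.0868) it was lost too. The 2 other probe sets of CYP26C1 had log2 fold changes of −3.64 (adjusted P value 0.0166) and −2.27 (adjusted P value 0.106).

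DRAXIN, a secreted guidance protein that repels commissural axons, gave even values, 430 and 432 in r2 and 57.0 and 55.4 in m (7.67-fold, −2.94 ± 0.17 SE, adjusted P value 4.37e-06). NEFM, the medium neurofilament of differentiating neurons, was at 453 and 527 in r2 and at 27.4 and 40.1 in m (14.7-fold, adjusted P value 2.15e-05). A second NEFM probe set was also called (−3.41, adjusted P value 1.63e-04). BMP5, a ligand of the dorsal neural tube, was at 144 and 171 in r2 and at 14.0 and 15.96 in m (10.5-fold, adjusted P value 0.00101). BMP5 stood at 18.4 in r1, close to m, and at 66.4, 66.4 and 34.0 in r3, r4 and r5, so that its mean was highest in r2.

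The remaining genes among the 15 with the largest excess in r2 were MLC1, CAP2, LMO1, CAB39L, PDGFA and CDH11. MLC1, a membrane protein of glia, was at 172 and 162 in r2 and at 10.8 and 7.38 in m (18.8-fold, adjusted P value 2.56e-04). LMO1, a LIM-only transcriptional cofactor, was at 130 and 135 in r2 and at 10.9 and 13.9 in m (10.8-fold, adjusted P value 5.84e-04). PDGFA, a growth factor, was at 33.4 and 48.6 in r2 and at 4.33 and 6.31 in m (7.72-fold, adjusted P value 0.00111). Another PDGFA probe set was not called (−2.05, adjusted P value 0.112). CAP2, an actin-binding protein, CAB39L, a scaffold of the LKB1 kinase, and CDH11, a cadherin of mesenchyme and crest, were 11.1-fold, 10.6-fold and 7.35-fold higher in r2. The adjusted P values of these 3 were 2.56e-04, 7.63e-05 and 0.00204. Other probe sets of CAB39L had log2 fold changes of −2.44 and −2.85 and were not called (adjusted P values 0.408 and 0.485). Another probe set of CDH11 was called (−2.11, adjusted P value 0.0192). None of their pools overlapped, as held for 52.2% of all genes.

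**Figure D3:**
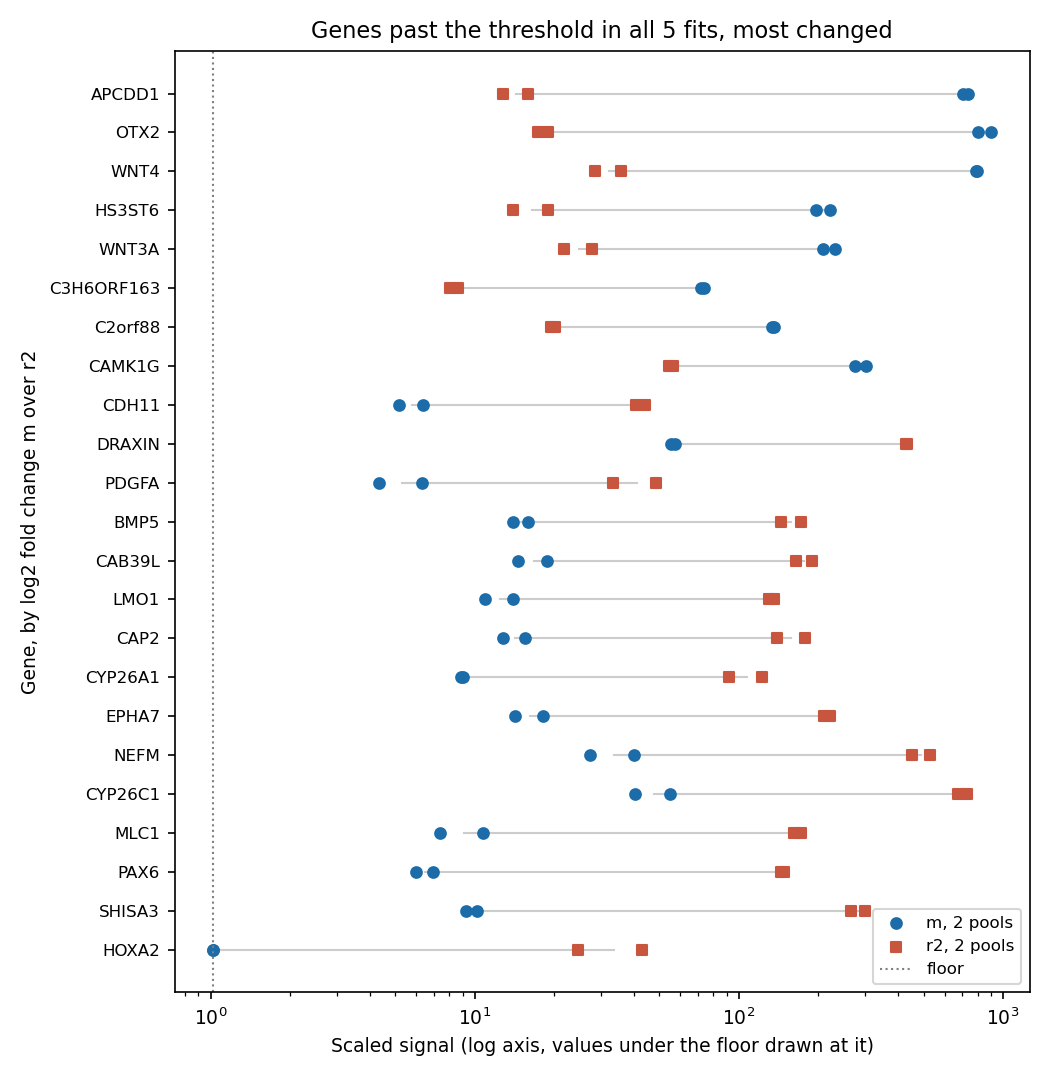
Scaled signal (log axis) in each m pool (blue circles) and r2 pool (red squares) for the 8 genes higher in m and the 15 with the largest excess in r2 among genes called in the fit of all arrays and in the 4 fits without 1 array, with grey lines joining the region means. No m pool overlapped an r2 pool, as held for 52.2% of all genes, and both m pools of HOXA2 lay at the floor.

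Summed signals of blood and vessel genes, a tissue the dissection should leave out, were also higher in r2. Of the 19 measured, all 19 had a negative log2 fold change, with a median of −1.59 against 0.06 over all genes. Their summed signal was 276 and 301 in m and 922 and 959 in r2. EGFL7 alone, at 427 and 474 in r2, supplied a large part of that sum. By the test 4 of the 19 were higher in r2 (EGFL7, HHEX, FLT4 and LMO2), against 0.92% of all genes, and 0 in m. EGFL7, a secreted endothelial protein, was at 427 and 474 in r2 and at 106 and 129 in m (−1.94 ± 0.26 SE, adjusted P value 0.00285), and lost its call without m set 1 (0.0659) or r2 set 2 (0.0758). The calls of HHEX (adjusted P value 0.0202), FLT4 (0.0468) and LMO2 (0.0494) were lost without any 1 of the 4 arrays (0.0868 to 0.518). With set as a block FLT4 (0.0741) and LMO2 (0.0750) were lost, which left 2 calls. A second probe set of FLT4 and of LMO2 went the other way without being called (log2 fold changes of 0.43 and 1.94).

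Defining blood and endothelial markers that did not pass were measured in both regions. CDH5, the cadherin of endothelial junctions, was at 39.0 and 40.03 in r2 and at 8.57 and 11.5 in m (adjusted P value 0.0799). The embryonic globin HBE was at 47.2 and 55.7 in r2 and at 13.3 and 12.8 in m (adjusted P value 0.299). PECAM1, an adhesion protein of endothelium, was at 14.1 and 8.97 in r2 and at 7.61 and 10.7 in m, where the pools overlapped. TAL1, SPI1, RUNX1 and SOX17 were below the filter. The part of blood and vessel cells in the r2 calls was not tested, and the same holds for the neural crest and matrix genes described below.

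Neural crest genes were examined next. Of 26 transcription factors and other early crest genes measured, 22 had a negative log2 fold change, with a median of −0.49 against 0.06 over all genes, and 3 passed the test, all higher in r2, against 0.92% of all genes. SNAI2, a zinc finger repressor of delaminating crest, had signals of 205 and 223 in r2 and of 29.5 and 31.9 in m (6.98-fold, −2.80 ± 0.26 SE, adjusted P value 1.65e-04), and stayed called without any 1 array. SOX10, a factor of migrating crest, was at 233 and 273 in r2 and at 65.7 and 79.7 in m (−1.80 ± 0.24 SE, adjusted P value 0.00259). Its call was lost without m set 1 (0.0632) or r2 set 2 (0.0758). DLX5 was called at an adjusted P value of 0.0265, lost without any 1 array (0.0823 to 0.386), and its second probe set had a log2 fold change of 0.18.

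Other crest genes did not pass. TWIST1, of crest mesenchyme and head mesoderm, was at 24.6 and 28.7 in r2 and at 6.28 and 1.15 in m (adjusted P value 0.0571). FOXD3, of premigratory crest, was at 70.1 and 38.5 in r2 and at 28.0 and 24.5 in m (adjusted P value 0.871). TFAP2B was at 192 and 177 in r2 and at 85.2 and 105 in m (adjusted P value 0.124). PAX7, of the dorsal neural tube, had overlapping pools, 30.5 and 23.5 in r2 and 25.8 and 31.3 in m. The 7 measured genes of migrating crest, SOX10 among them, all had negative values, with a median of −0.99. Their sum was 318 and 356 in m and 700 and 707 in r2, and SOX10 alone supplied a large part of it.

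**Figure D4:**
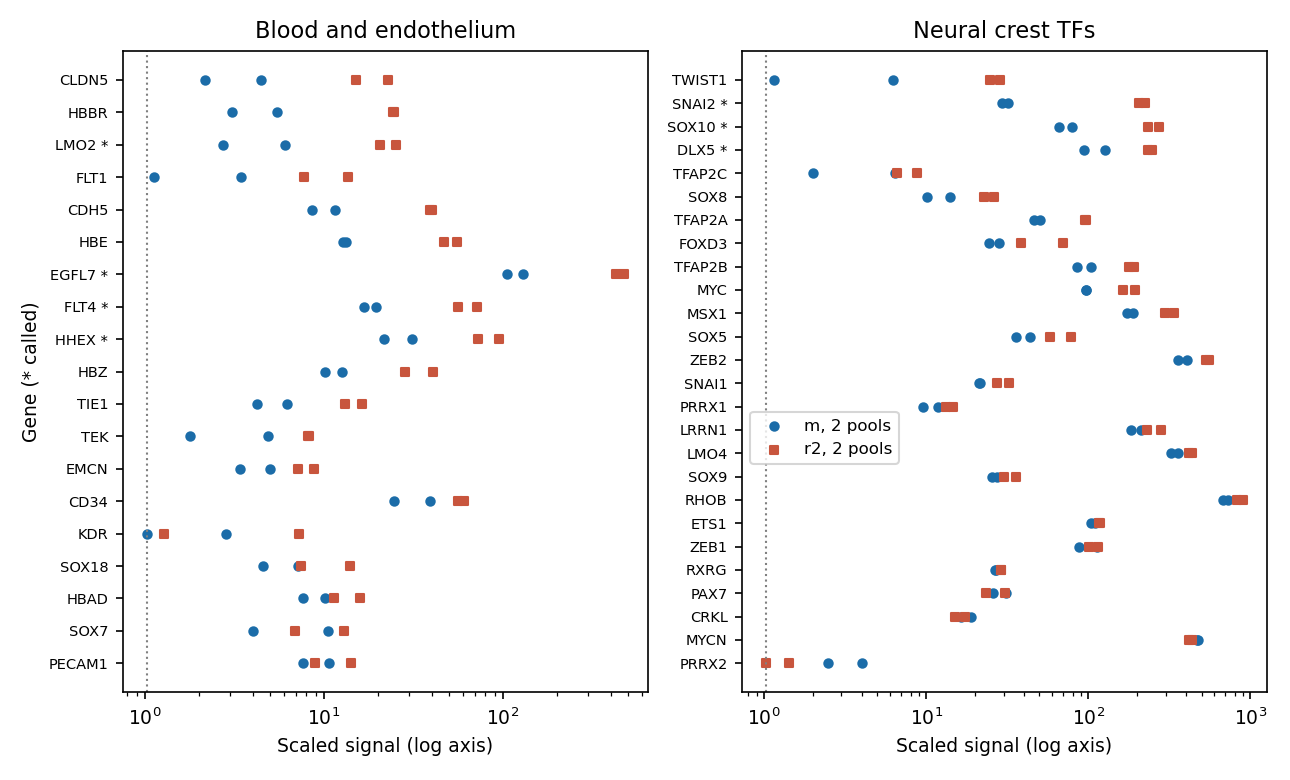
Scaled signal (log axis) in each m pool (blue circles) and r2 pool (red squares) for the 19 measured blood and endothelial genes (left) and the 26 measured neural crest genes (right), with called genes starred and the floor dotted. In r2, 4 blood and endothelial genes and 3 crest genes were called higher, and none in m.

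Among 16 measured transcription factors of the midbrain and isthmus, 4 were higher in m and 2 higher in r2, against 0.42% and 0.92% of all genes. Their median log2 fold change was 1.00. Besides OTX2 and EN1, MAB21L2, a gene of the midbrain roof and eye, had signals of 154 and 148 in m and of 7.13 and under the floor in r2 (adjusted P value 0.00585). Its log2 fold change was set by the floor, at 5.80 with the floor used, 6.69 with none and 4.84 with the floor at the 40th percentile. MAB21L2 stayed called without r2 set 1 (0.00513) and not without r2 set 2 (0.0731), m set 1 (0.0969) or m set 2 (0.0906). SP8, a zinc finger factor that acts with FGF8 at the isthmus, was at 512 and 543 in m and at 156 and 142 in r2 (1.83 ± 0.37 SE, adjusted P value 0.0380). GBX2, the hindbrain partner of OTX2 at the boundary, was at 891 and 1049 in r2 and at 351 and 470 in m (−1.25 ± 0.25 SE, adjusted P value 0.0371). NR2F2, an orphan nuclear receptor, was at 190 and 205 in r2 and at 60.6 and 71.3 in m (−1.59 ± 0.26 SE, adjusted P value 0.0103). The calls of SP8, GBX2 and NR2F2 were each lost without any 1 array (0.0891 to 0.434). GBX2 was thus well above the floor in m too, and its mean was 1262 in r1 and 2050 in r3.

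Several genes of this territory missed the threshold with pools that did not overlap, as held for 52.2% of all genes. PAX2, a paired-box gene of the isthmus, was at 363 and 395 in m and at 83.2 and 90.2 in r2 (2.13 ± 0.69 SE, adjusted P value 0.299). IRX2, an Iroquois factor, was at 341 and 392 in r2 and at 63.4 and 73.0 in m (−2.43 ± 0.56 SE, adjusted P value 0.0789). DMBX1, a midbrain homeobox gene, was at 18.5 and 18.7 in m and at 3.14 and under the floor in r2 (adjusted P value 0.362). For PAX2 and IRX2 the standard error, shared with the other regions, was wide beside the spread of the 4 pools. EN2, PAX5, PAX3 and WNT1 were not among the genes tested.

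FGF8, the organiser's main signal, was at 61.6 and 62.0 in m and at 25.9 and 23.8 in r2 (1.32 ± 0.72 SE, adjusted P value 0.810). Its mean was highest in r1 (161) and under 3 from r3 to r5. In the fit of the 4 m and r2 arrays alone FGF8 was called (adjusted P value 0.00936). FGF18, another isthmic ligand, was at 361 and 375 in m and at 16.5 and 16.2 in r2, a 22.5-fold difference (4.49 ± 0.90 SE, adjusted P value 0.0360). That call was lost without any 1 array, at log2 fold changes of 4.47 to 4.52, although both pools of each region were close. With quantile normalisation it was lost too (adjusted P value 0.0593). The r1 mean of FGF18 was 336, near that of m. FGFR2, a receptor, was at 244 and 255 in r2 and at 121 and 122 in m (−1.03 ± 0.18 SE, adjusted P value 0.0154, 0.168 to 0.223 without 1 array). FGFR3 was at 381 and 370 in r2 and at 164 and 172 in m and was not called (adjusted P value 0.143). FGF18, higher in m, and FGFR2, higher in r2, were the only called members of 26 FGF genes measured, against 0.42% and 0.92% of all genes. The median log2 fold change of the list was −0.02.

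Across the 45 Wnt genes measured, 5 were higher in m and 2 higher in r2, against 0.42% and 0.92% of all genes. The median log2 fold change was 0.07. Ligands made up 4 of the 5. Beyond WNT4 and WNT3A, WNT2B was at 115 and 117 in m and at 7.66 and 8.87 in r2 (3.82 ± 0.78 SE, adjusted P value 0.0402). WNT5B was at 82.8 and 78.4 in m and at 22.6 and 22.3 in r2 (1.84 ± 0.29 SE, adjusted P value 0.00898). The 2 higher in r2 modulate the pathway. RSPO3, which potentiates Wnt receptors, was at 288 and 284 in r2 and at 106 and 99.3 in m (−1.48 ± 0.24 SE, adjusted P value 0.00913). SFRP2, a decoy that binds Wnts, was at 826 and 834 in r2 and at 422 and 464 in m (−0.91 ± 0.19 SE, adjusted P value 0.0440). Without any 1 array WNT2B, WNT5B, RSPO3 and SFRP2 all lost their calls (0.103 to 0.426), and WNT2B was lost with quantile normalisation (0.0556). RSPO2, a relative of RSPO3, was at 74.2 and 89.0 in m and at 8.77 and 12.3 in r2 without passing the test (adjusted P value 0.101).

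Only 6 Hox genes passed the filter, which kept a probe set for its signal in any region, and HOXA2 was the 1 called. HOXB1, the gene of rhombomere 4, was at 2.02 and 3.93 in r2 and at 1.35 and under the floor in m (adjusted P value 0.856), against a mean of 296 in r4. With the filter on m and r2 only, HOXB1 was not tested. HOXA2 was under the floor in r1 as well and at 108, 112 and 142 in r3, r4 and r5, so that r2 had the lowest level of the 4 regions above the floor. Of 16 genes of hindbrain segmentation 4 were higher in r2, against 0.92% of all genes, and 0 in m, with a median of −0.31. They were PAX6, EPHA7, FST and DBX2, of which PAX6, EPHA7 and FST are counted again in other lists below. Another FST probe set was not called (log2 fold change −1.59, adjusted P value 0.682). FST, follistatin, which binds activin and BMPs, was at 113 and 113 in r2 and at 18.7 and 20.3 in m (−2.54 ± 0.36 SE, adjusted P value 0.00433), and reached 0.0515 to 0.0828 without 1 array. DBX2, a homeobox gene of intermediate progenitors, was at 59.4 and 45.2 in r2 and at 15.6 and 20.8 in m (adjusted P value 0.0442, 0.187 to 0.4501 without 1 array, 0.0691 with set as a block).

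In the list of Hox cofactors and retinoid genes, 21 were measured, 3 CYP26 genes were higher in r2 and 1 gene, RBP5, was higher in m. Over all genes the shares called were 0.92% and 0.42%. RBP5, a retinol-binding protein, was at 445 and 461 in m and at 175 and 179 in r2 (1.35 ± 0.24 SE, adjusted P value 0.0167, 0.175 to 0.219 without 1 array). RDH10, which makes retinaldehyde, was at 229 and 204 in m and at 110 and 88.5 in r2 (adjusted P value 0.228). CRABP1, a binding protein for retinoic acid, was at 213 and 313 in r2 and at 117 and 99.8 in m (adjusted P value 0.468). The median of the list was −0.12.

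All calls in the list of BMP and dorsal genes and in that of hedgehog and ventral genes were higher in r2. WNT3A, a dorsal ligand counted in the Wnt list, was higher in m. Of 33 BMP and dorsal genes 3 were called, BMP5, MSX2 and FST, where 0.92% of all genes were called in that direction. MSX2, a homeobox target of BMPs, was at 45.8 and 50.9 in r2 and at 7.63 and 8.53 in m (−2.58 ± 0.36 SE, adjusted P value 0.00399), and was called without m set 2 (0.0438) and not without m set 1 (0.0659), r2 set 1 (0.0587) or r2 set 2 (0.0888). Of 18 genes of the hedgehog pathway and ventral tube 3 were called, against the same 0.92%. SULF1, a sulfatase that trims heparan sulfate, was at 248 and 260 in r2 and at 58.2 and 58.2 in m (4.36-fold, −2.12 ± 0.22 SE, adjusted P value 4.75e-04), and stayed called without any 1 array. SCUBE2, which helps release hedgehog ligands, was at 274 and 345 in r2 and at 68.9 and 89.0 in m (−1.97 ± 0.27 SE, adjusted P value 0.00285), with 0.0686 without m set 1 and 0.0844 without r2 set 2. CDON, a hedgehog co-receptor, was called at an adjusted P value of 0.0193, and was lost without any 1 array (0.187 to 0.230). SHH itself was at 6.58 and 5.24 in r2 and at 12.0 and 7.51 in m, low in both.

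Adhesion and guidance genes moved in both directions. Of 13 Eph receptors and ephrins, EPHA7 was higher in r2 and EPHB3 higher in m, against 0.92% and 0.42% of all genes. EPHB3 was at 129 and 123 in m and at 47.0 and 44.3 in r2 (1.47 ± 0.31 SE, adjusted P value 0.0486, 0.311 to 0.417 without 1 array). EPHA3 was at 28.2 and 25.7 in r2 and at 6.18 and 5.15 in m (adjusted P value 0.0924). Of 25 cadherins 3 were called, all higher in r2, against 0.92% of all genes. PCDH9, a protocadherin, was at 71.9 and 66.4 in r2 and at 3.12 and 8.26 in m (−3.77 ± 0.50 SE, adjusted P value 0.00272), and was lost without r2 set 1 (0.0605) or r2 set 2 (0.0607). CDH13, a cadherin without a cytoplasmic tail, was called at an adjusted P value of 0.0103 and kept the call only without m set 2 (0.0438, against 0.106 to 0.190 without the other arrays). CDH11 was the third.

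Of 46 axon guidance genes 3 were higher in m and 3 higher in r2, against 0.42% and 0.92% of all genes. NTM, a neuronal adhesion protein, was at 195 and 207 in m and at 44.0 and 25.1 in r2 (2.59 ± 0.38 SE, adjusted P value 0.00585), and kept its call only without r2 set 1 (0.0232, against 0.0837 to 0.125 otherwise). CNTN4, a contactin, was at 82.4 and 90.2 in m and at 19.7 and 20.7 in r2 (adjusted P value 0.0137, 0.146 to 0.201 without 1 array). SEMA5B, a semaphorin, was at 272 and 247 in m and at 67.3 and 56.4 in r2 (adjusted P value 0.00285), and was lost without m set 1 (0.0650) or r2 set 2 (0.0775). In r2 the plexin receptors PLXND1, at 156 and 143 against 26.8 and 45.9 in m (adjusted P value 0.00585), and PLXNA2, at 218 and 204 against 85.1 and 88.4 (0.0431), joined DRAXIN. PLXND1 kept its call only without m set 2 (0.0129, against 0.0874 to 0.106), and PLXNA2 was lost without any 1 array (0.303 to 0.352) and with set as a block (0.0620).

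Of 38 genes of neurons and of Notch signalling 3 were called higher in r2, against 0.92% of all genes, and 0 in m. The list had 16 positive and 22 negative log2 fold changes, with a median of −0.36. NEFL, the light neurofilament, was at 101 and 91.2 in r2 and at 24.5 and 29.5 in m (−1.83 ± 0.34 SE, adjusted P value 0.0222, 0.162 to 0.264 without 1 array). HES6, a factor of committed neural precursors, was at 553 and 631 in r2 and at 197 and 269 in m (adjusted P value 0.00890), and kept its call only without m set 2 (0.0306, against 0.0816 to 0.169). DCX, of young neurons, was at 593 and 539 in r2 and at 276 and 294 in m (adjusted P value 0.0533). TUBB3, the neuronal tubulin, had overlapping pools, 203 and 170 in r2 and 215 and 194 in m. Of 20 neural progenitor genes PAX6 and SLC1A3 were called, both higher in r2, against 0.92% of all genes. SLC1A3, a glutamate transporter of radial glia, was at 54.5 and 58.8 in r2 and at 10.3 and 16.7 in m (adjusted P value 0.00856), and kept its call only without m set 2 (0.0253, against 0.104 to 0.141).

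Among 60 matrix and integrin genes 5 were higher in r2, against 0.92% of all genes, and 0 in m, with a median of −0.13. ITGA4, an integrin subunit, was at 268 and 254 in r2 and at 54.9 and 39.4 in m (adjusted P value 0.00518), and kept its call only without m set 1 (0.0397, against 0.0816 to 0.0952). COL9A3, a collagen IX chain, was at 170 and 166 in r2 and at 29.7 and 34.1 in m (adjusted P value 0.00265), and kept its call only without m set 2 (0.0322, against 0.0534 to 0.0607). HAPLN1, which links hyaluronan to proteoglycans, kept its call (adjusted P value 0.00757) only without m set 2 (0.00927, against 0.103 to 0.109). ADAMTSL1 and COL12A1 (0.0301 and 0.00955) were lost without any 1 array (0.0755 to 0.330). The summed blood and vessel signal was higher in r2 as well, and its part in the matrix calls was not tested.

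**Figure D5:**
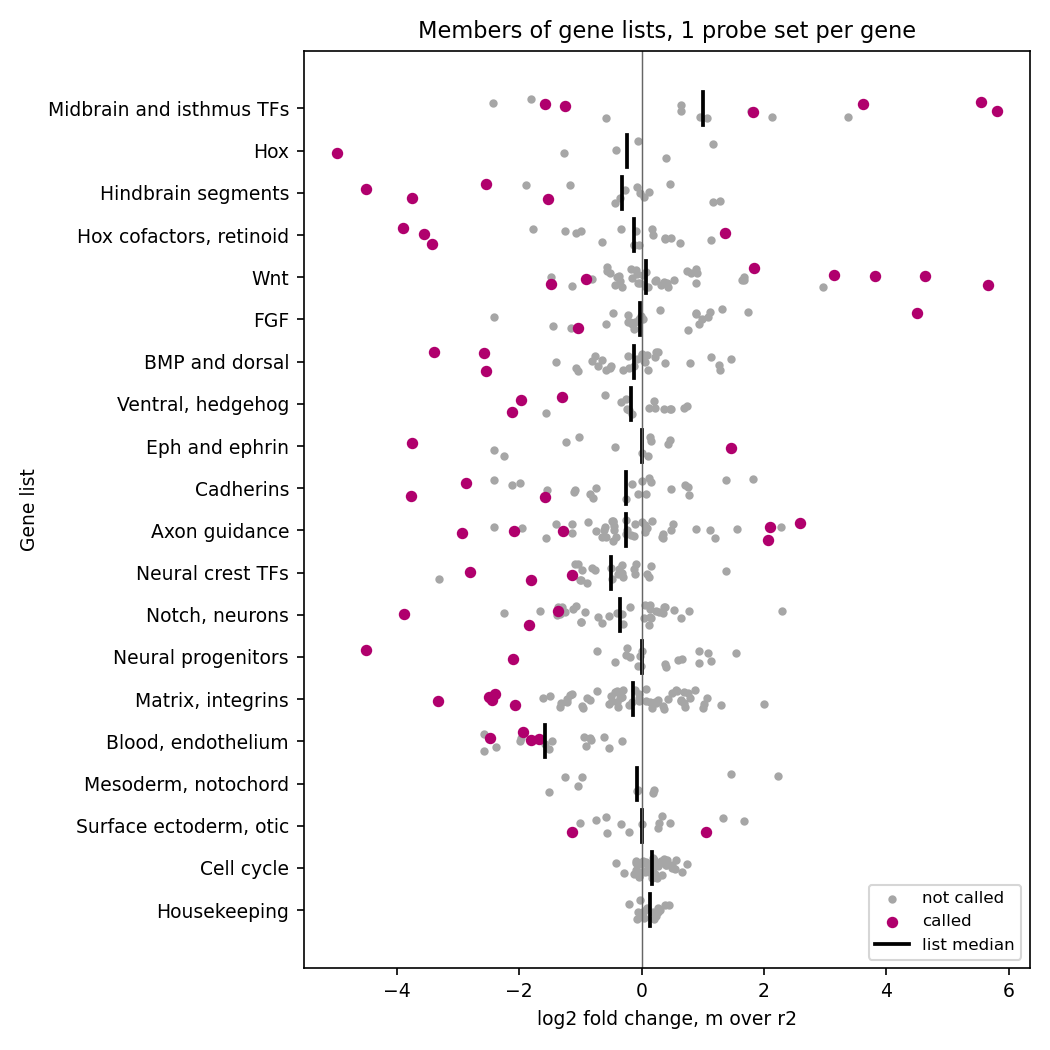
log2 fold change, m over r2, of the measured members of 20 gene lists (1 probe set per gene), with called genes in magenta, others in grey and a black bar at each list median. The blood and endothelial list had the lowest median (−1.59), the midbrain and isthmus list the highest (1.00), and the cell cycle and housekeeping genes lay near 0 with none called.

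Markers of other neighbouring tissues were compared next. Of 8 forebrain and eye genes, 10 of head mesoderm, somite and notochord, and 12 of endoderm and heart, 0 were called by limma. At an unadjusted P value under 0.05 the counts were 0, 5 and 4, against 851 of all 10001 genes. The shares for mesoderm and for endoderm were above that over all genes. Of the 5, 2 were higher in m and 3 in r2, and of the 4, 1 was higher in m and 3 in r2. Of the 10, 2 were called higher in m and 3 higher in r2 without r3 in the fit. TBXT, the notochord gene brachyury, was at 56.4 and 75.05 in m and at 14.7 and 13.0 in r2 (adjusted P value 0.426). MYL3, a myosin light chain of heart and slow muscle, was at 70.9 and 60.1 in r2 and at 7.74 and 10.1 in m (adjusted P value 0.350). Of 15 surface ectoderm and otic genes EPCAM was higher in m and DLX5 higher in r2, against 0.42% and 0.92% of all genes. EPCAM, an epithelial adhesion protein, was at 679 and 668 in m and at 319 and 334 in r2 (1.05 ± 0.18 SE, adjusted P value 0.0157, 0.169 to 0.220 without 1 array).

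Lists of general cell functions had medians close to 0. Of 40 cell cycle genes, 26 of glycolysis and 16 housekeeping genes 0 were called by limma. At an unadjusted P value under 0.05 the counts were 3, 4 and 0, against 851 of all 10001 genes. The share for glycolysis was above that over all genes. All 4 of its genes were higher in m, and 22 of the 26 had a positive log2 fold change. Of the 3 cell cycle genes, 2 were higher in m and 1 in r2. The median log2 fold changes of these lists were 0.17, 0.24 and 0.13, and all 3 medians turned negative without scaling (−0.14, −0.07 and −0.18). HSPA2, a heat shock protein, was the only call among 26 stress genes, at 389 and 417 in m and at 167 and 212 in r2 (adjusted P value 0.0274, 0.125 to 0.366 without 1 array). GRIK3, a kainate receptor, was the only call among 27 ion channel and receptor genes, at 62.1 and 62.9 in r2 and at 19.98 and 19.6 in m (adjusted P value 0.0431, 0.3005 to 0.367 without 1 array and 0.0564 with set as a block). Of 2 measured W chromosome genes neither was called. Over all genes 0.42% were called higher in m and 0.92% higher in r2.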

How the data were processed

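The deposited intensities were MAS5 signals that the authors made from each Affymetrix Chicken GeneChip (38535 probe sets, 96 of them controls), 1 value per probe set and array, with no count behind it, so the number of arrays sets the precision. The genome build was not given in the sources used here. Gene symbols came from the platform annotation of GEO. 27168 probe sets had 1 symbol, 177 had several and 11094 had none, and only those with 1 were named. Signals were scaled to the array median, floored (20th percentile) and taken to log2. limma 3.58.1 in R 4.3.3 was fitted to 6 region means over 12 arrays (lmFit, eBayes with trend, 6 residual and 6 prior degrees of freedom), with the contrast m minus r2. The script was tested on simulated data. Figures were drawn with matplotlib 3.10.9.

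Named genes were OTX2, EN1, HOXA2, FGF8 and HOXB1, then up to 15 genes in each direction with the largest change among those called in the fit of all arrays and in the 4 fits without 1 array of m or r2, up to 5 members per list passing the same fits, and members of the lists that did not pass all of these, of which a part is given. The members and the 27 gene lists were chosen with earlier results of these data known. Alternatives concerned scaling, floor, filter, arrays in the fit, array weights, moderation, probe set and the set number as a block. The deviations of m set 1 and r2 set 1 from their region means had a correlation of 0.03. With so few pools per region this value cannot decide whether the set numbers pair the samples.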

Additional observations from a re-analysis of the deposited data

How the results depend on the processing

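Against 78 probe sets higher in m and 144 higher in r2, the counts were 20 and 76 without scaling (where the median log2 fold change over all probe sets went from 0.07 to −0.24), 89 and 230 with quantile normalisation, and 168 and 182 with the floor at the 40th percentile. They were 604 and 415 on the m and r2 arrays alone, 266 and 319 without r3, 760 and 699 with array weights, and 37 and 70 with an unmoderated test of the same contrast (887 and 889 at an unadjusted P value under 0.05). Leaving out 1 array gave 14 to 21 and 35 to 62. Of the list members, 17 were higher in m and 41 higher in r2. The counts were 8 and 23 without scaling, 62 and 80 on the m and r2 arrays alone, 42 and 69 without r3, 64 and 112 with array weights, and 6 and 15 with the unmoderated test. Without the intensity trend they were 9 and 28, and without 1 array they were 4 to 7 and 11 to 22. Set as a replicate block gave 72 and 130 probe sets, 198 of them shared with the 222, and 18 and 35 list members. The paper describes the sets as separate collections. Whether m and r2 of the same set number came from 1 collection is not stated in the sources. Of 70 genes tracked 6 lost their call under the block (CYP26B1, DBX2, FLT4, GRIK3, LMO2 and PLXNA2), 31 without scaling, 16 without the filter, 37 with the unmoderated test and 23 without the trend. EN1 was among the last 2 groups (adjusted P values 0.158 and 0.0531). Of the 70, none turned direction under the alternatives run except under another probe set, DLX5 (0.18), FLT4 (0.43) and LMO2 (1.94). Of 59 other probe sets 40 were not called where the first was, some of them near 0 (CDON −0.19 and −0.31, CNTN4 0.19, COL12A1 −0.32). The causes were not tested. With 2 pools per region, a difference that missed the threshold is not shown to be absent.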
